A study of Mus musculus with 16 samples.

Results

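In mouse embryos without KAT6A, 7 genes (Skida1, Ntn1, Tle5, Rnf150, Soga3 and the near-copies 2610005L07Rik and 6820431F20Rik) had low mRNA levels. The 7 had not been placed in a gene family, and had also been read as low when a Kat6b transgene was present. They are 7 of the 26411 genes counted in each embryo, and all 7 were among the 15679 genes with enough reads to be tested. The genes were selected on measured values, their levels in both groups of Kat6a-/- embryos against wild type, so those comparisons are given here as a description with no p-value, and a call in them only restates how the genes were chosen. In these data the fall of Skida1 was only partly kept and that of Ntn1 was kept for the most part, by an amount that depended on the reference embryos. The falls of Tle5 and Rnf150 differed widely between embryos.

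Transcripts were counted in 16 entire mouse embryos of E9.5 (embryonic day 9.5), a stage of neural tube, somite and pharyngeal arch patterning, with 4 embryos in each of 4 genotypes. Wild-type embryos were Kat6a+/+Kat6b+/+, 2 males from litters 801 and 803 and 2 females from litters 2597 and 2598. Kat6a-/-Kat6b+/+ embryos, 2 females of litter 801 and 2 males of litter 803, carried in both copies a null allele that lacks several exons of Kat6a. Kat6a+/+Tg(Kat6b) embryos, 3 of litter 2597 and 1 of litter 2598, had intact Kat6a and a bacterial artificial chromosome with the whole Kat6b gene, inserted in several copies in a line from a single founder. Kat6a-/-Tg(Kat6b) embryos had the null allele and the transgene, and came as 3 embryos of litter 483 and 1 of litter 498. No embryo of another genotype came from these last litters, so that litter and genotype cannot be told apart in this group, and in the wild type sex and litter cannot. All embryos were on a mixed FVB and BALB/c background.

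KAT6A and KAT6B are closely related acetyltransferases that modify histone H3 at chromatin and keep developmental genes active. Mice without KAT6A die before birth, with shifts in segment identity along the body axis, cleft palate and defects of the heart and the blood stem cells. A transgene that raises KAT6B asks which of the mRNA changes in Kat6a-/- embryos depend on KAT6A itself and which can be met by its relative. Because each library holds a whole embryo, a lower mRNA level may reflect fewer cells of the type that makes it or less RNA per cell, and these cannot be told apart here.

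Between 14407277 and 45665680 reads were counted on genes per embryo, and the 7 genes had between 250 and 6263 counts each. Values are CPM (read counts scaled to a common normalised library size), given with the SD over 4 embryos. Kat6b was at 46.2 ± 2.45 CPM in wild-type and 49.1 ± 2.03 CPM in Kat6a-/-Kat6b+/+ embryos, while Kat6a+/+Tg(Kat6b) embryos had 192 ± 29.7 CPM and those of genotype Kat6a-/-Tg(Kat6b) 197 ± 4.92 CPM, which separates the transgenic embryos from the others. Kat6a counts (199 ± 16.5, 202 ± 15.2, 179 ± 27.3 and 192 ± 7.87 CPM in the same order) are summed over the whole gene and do not resolve the deleted exons, so they do not check that genotype.

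The genes do very different things. Skida1 encodes a nuclear protein with a SKI/DACH domain, a fold shared with transcriptional corepressors, and lies on chromosome 2 of GRCm39 from 18045487 to 18053862. Ntn1 encodes netrin-1, the secreted cue made by the floor plate of the neural tube that attracts or repels growing axons through the receptors DCC, neogenin and UNC5, and lies on chromosome 11 from 68100190 to 68291662. Tle5 (also called Aes), on chromosome 10 from 81394984 to 81402229, encodes a short relative of the Groucho/TLE corepressors that lacks their WD40 repeats and can interfere with them. Rnf150, on chromosome 8 from 83589981 to 83817897, belongs to a family of membrane-bound RING ubiquitin ligases. Soga3 (named Mtcl3 in the GENCODE annotation), on chromosome 10 from 29019646 to 29085239, belongs to a family of microtubule-binding proteins. 2610005L07Rik and 6820431F20Rik lie side by side on chromosome 8, from 20016186 to 20115048 and from 20143545 to 20182492, where GENCODE annotates each as a long non-coding RNA with a transcribed pseudogene inside it.

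The pair of Rik genes must be read together, because they are near-copies of each other and of part of Cdh11, the gene of the cell adhesion protein cadherin-11. The exon stretch that the 3 genes share most closely, among those with a difference between the Rik genes, is printed here from GRCm39 with the bases at which any of them differs in capitals. It lies at chr8:20169063-20169194 (plus strand) for 6820431F20Rik, at chr8:20041814-20041945 (plus strand) for 2610005L07Rik and at chr8:103394664-103394795 (minus strand) for Cdh11.
6820431F20Rik: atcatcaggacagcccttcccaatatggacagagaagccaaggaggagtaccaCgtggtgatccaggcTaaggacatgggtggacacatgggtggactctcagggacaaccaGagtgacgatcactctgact
2610005L07Rik: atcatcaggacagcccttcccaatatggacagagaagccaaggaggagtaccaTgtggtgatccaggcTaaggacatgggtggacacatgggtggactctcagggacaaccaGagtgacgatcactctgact
Cdh11: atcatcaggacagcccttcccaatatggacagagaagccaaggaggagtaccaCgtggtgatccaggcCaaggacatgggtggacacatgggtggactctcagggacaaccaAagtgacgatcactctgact
Of the 132 bases, 131 were identical between the Rik genes and 130 between 6820431F20Rik and Cdh11. The longest run without a difference between the Rik genes was 78 bases, more than the read length of 66 bases. A single read that falls inside this run cannot be assigned to either Rik gene by its own sequence. Reads were sequenced in pairs, and whether the other read of a pair tells the genes apart was not examined. Over all their annotated exons, 88.5% of the 66-base windows of 2610005L07Rik and 80.7% of those of 6820431F20Rik occur at another place in the genome as well, most often at other sites of the same part of chromosome 8, and 37.4% and 61.3% occur in the exons of the other gene of the pair. These shares are over 20660 and 12789 annotated exon bases, whereas the lengths that come with the counts are 4009 and 4659 bases, so they describe the locus and not the counted bases exactly. The same share was 8.13% for Soga3, 0.12% for Rnf150 and 0 for Skida1, Ntn1 and Tle5. How the counting treated reads with several matches is not given in the sources used here, and the counts of 2610005L07Rik and 6820431F20Rik are therefore uncertain as to which copy they come from. Exons of a gene on the opposite strand overlap 1.45% of the exon bases of Ntn1, 4.77% of those of Rnf150, 3.90% of those of Soga3 and 0.633% of those of 6820431F20Rik, and the strand setting of the counting is not given either.

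Per length (RPKM, CPM per kilobase of the listed gene length), the levels in wild-type embryos spanned a wide range. Tle5 was highest at 55.3 ± 6.5 RPKM, followed by Ntn1 at 27.9 ± 1.33, Skida1 at 14.6 ± 0.596, 6820431F20Rik at 13.7 ± 0.820, 2610005L07Rik at 10.2 ± 0.935, Soga3 at 6.14 ± 0.418 and Rnf150 at 2.34 ± 0.358 RPKM (SD, n = 4). Skida1 and 6820431F20Rik overlapped, between 13.7 and 15 and between 13.0 and 14.8 RPKM, and the ranges of the other neighbours in this order did not overlap.

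**Figure D1:**
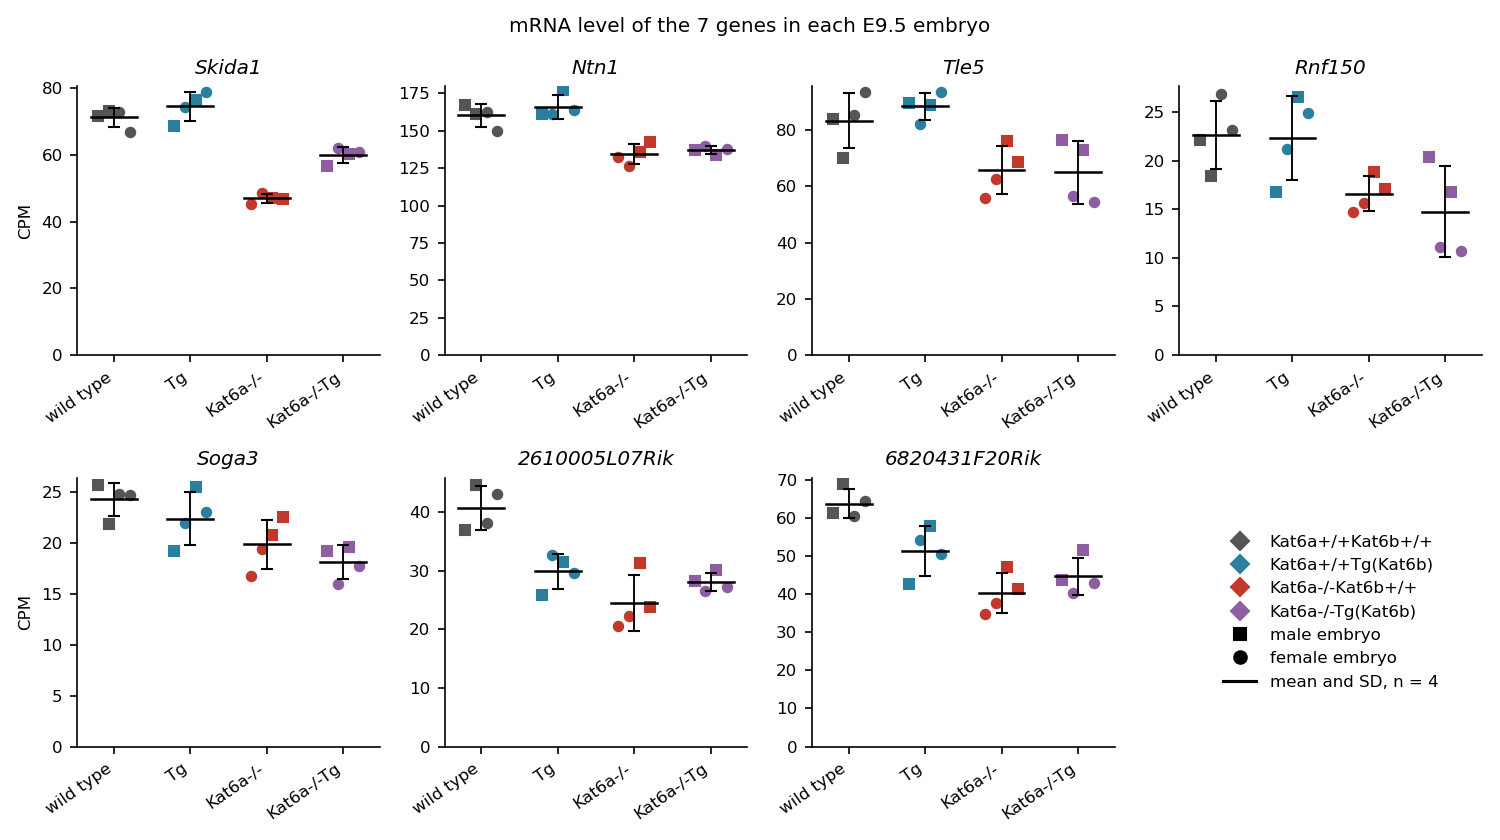
CPM of each of the 7 genes (y axis, from 0) in the 16 embryos, grouped by genotype (x axis), with males as squares, females as circles and the mean and SD of 4 embryos in black. Skida1 is lowest in Kat6a-/-Kat6b+/+ embryos (45.4 to 48.5 CPM) and in between in Kat6a-/-Tg(Kat6b) embryos (56.7 to 62.2 CPM), whereas both Kat6a-/- groups are alike for Ntn1.

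Skida1 was the gene of the 7 with the clearest separation of all groups that differ in Kat6a. It was at 71.6, 73.3, 73.0 and 67.0 CPM in the 4 wild-type embryos (71.2 ± 2.91) and at 45.4, 48.5, 47.2 and 46.7 CPM in the Kat6a-/-Kat6b+/+ embryos (46.9 ± 1.28). With the transgene, the level was 56.7, 62.2, 60.2 and 60.9 CPM in Kat6a-/- embryos (60.0 ± 2.33) and, in Kat6a+/+ embryos, 68.7, 74.4, 76.6 and 78.9 CPM (74.6 ± 4.35). Every Kat6a-/-Tg(Kat6b) embryo thus lay above every Kat6a-/-Kat6b+/+ embryo and below every embryo with intact Kat6a. The log2 fold change vs. wild type was -0.60 (standard error 0.0481) without and -0.25 (standard error 0.05) with the transgene, and the difference between these 2 groups was 0.35 (standard error 0.05).

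Ntn1 fell less, and its level in the 2 Kat6a-/- groups was nearly the same. It was at 168, 162, 163 and 150 CPM in wild-type embryos (160 ± 7.61), at 133, 127, 136 and 143 CPM in Kat6a-/-Kat6b+/+ embryos (135 ± 6.80) and at 137, 140, 134 and 138 CPM in Kat6a-/-Tg(Kat6b) embryos (137 ± 2.49). Kat6a+/+Tg(Kat6b) embryos were at 161, 162, 177 and 164 CPM (166 ± 7.76). The lowest embryo with intact Kat6a, at 150 CPM, was above the highest Kat6a-/- embryo, at 143 CPM. The log2 fold change vs. wild type was -0.25 (standard error 0.0401) without and -0.23 (standard error 0.0423) with the transgene.

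Tle5 and Rnf150 were lower on average in both Kat6a-/- groups, but with wide and overlapping values. Tle5 was at 84.0, 70.1, 85.3 and 93.7 CPM in wild-type embryos (83.3 ± 9.79) and at 55.9, 62.5, 76.0 and 68.6 CPM in Kat6a-/-Kat6b+/+ embryos (65.7 ± 8.57). With the transgene, Kat6a-/- embryos had 76.6, 56.4, 72.8 and 54.3 CPM (65.0 ± 11.3) and Kat6a+/+ embryos 89.6, 82.0, 88.8 and 93.5 CPM (88.5 ± 4.77). Both Kat6a-/-Tg(Kat6b) males were above and both females below the lowest wild-type embryo. Rnf150 was at 22.1, 18.5, 26.9 and 23.2 CPM in wild-type embryos (22.7 ± 3.47), at 14.7, 15.7, 18.9 and 17.1 CPM in Kat6a-/-Kat6b+/+ embryos (16.6 ± 1.80) and at 20.4, 11.1, 16.8 and 10.7 CPM in Kat6a-/-Tg(Kat6b) embryos (14.8 ± 4.69). Kat6a+/+Tg(Kat6b) embryos were at 16.8, 21.2, 26.6 and 24.9 CPM of Rnf150 (22.4 ± 4.35). The Kat6a-/-Tg(Kat6b) females, replicates 2 and 4, had the lowest Rnf150 of all 16 embryos. The log2 fold changes vs. wild type without and with the transgene were -0.32 and -0.24 for Tle5 (standard errors 0.0507 and 0.0534) and -0.42 and -0.43 for Rnf150 (standard errors 0.0927 and 0.0979).

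Soga3 was between 21.9 and 25.7 CPM in wild-type embryos (24.3 ± 1.65) and at 16.7, 19.4, 20.7 and 22.5 CPM in Kat6a-/-Kat6b+/+ embryos (19.8 ± 2.44). Kat6a-/-Tg(Kat6b) embryos had 19.2, 15.9, 19.6 and 17.7 CPM (18.1 ± 1.67) and Kat6a+/+Tg(Kat6b) embryos 19.2, 21.9, 25.4 and 23.0 CPM (22.4 ± 2.60). The wild-type embryos were all above the Kat6a-/-Tg(Kat6b) embryos and overlapped the other 2 groups. The log2 fold change vs. wild type was -0.27 (standard error 0.0697) without and -0.33 (standard error 0.0741) with the transgene.

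The Rik pair fell most of the 7 genes without the transgene, and was low in all 3 mutant or transgenic groups. 2610005L07Rik was at 36.9, 44.7, 38.2 and 43.1 CPM in wild-type embryos (40.7 ± 3.75), at 20.6, 22.3, 31.4 and 23.8 CPM in Kat6a-/-Kat6b+/+ embryos (24.5 ± 4.74) and at 28.3, 26.6, 30.1 and 27.3 CPM in the Kat6a-/-Tg(Kat6b) group (28.1 ± 1.53). In Kat6a+/+Tg(Kat6b) embryos, which have intact Kat6a, its level was 25.9, 32.7, 31.6 and 29.7 CPM (29.9 ± 2.99), also below every wild-type embryo. Wild-type embryos had 61.3, 68.9, 60.4 and 64.3 CPM of 6820431F20Rik (63.7 ± 3.82), Kat6a-/-Kat6b+/+ embryos had 34.9, 37.7, 47.0 and 41.3 CPM (40.2 ± 5.23), Kat6a-/-Tg(Kat6b) embryos 43.6, 40.3, 51.7 and 42.9 CPM (44.6 ± 4.91) and Kat6a+/+Tg(Kat6b) embryos 42.6, 54.2, 57.9 and 50.4 CPM (51.3 ± 6.56). The log2 fold changes vs. wild type without and with the transgene were -0.74 and -0.49 for 2610005L07Rik (standard errors 0.101 and 0.105) and -0.66 and -0.47 for 6820431F20Rik (standard errors 0.0872 and 0.0906). Since the pair shares so much sequence, its members are not independent observations.

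All 7 genes were called lower in both Kat6a-/- groups, in edgeR's quasi-likelihood test with a false discovery rate (FDR, the Benjamini-Hochberg adjusted p-value over all tested genes) under 0.05, which is how they had been selected and is no result about them. Over all tested genes, 0.938% were called lower in Kat6a-/-Kat6b+/+ vs. wild-type embryos and 0.395% when Kat6a-/-Tg(Kat6b) was compared with wild type, and 18 genes (0.115%) were called lower in both. The values of the groups did not overlap for 4 of the 7 genes in the first comparison (4.01% of all genes, lower) and for 5 in the second (3.68%). Just inside the threshold lay 2610005L07Rik, Soga3 (-0.27 and -0.33) and Dlx6os1 (-1.96 and -0.66), and just outside it Hoxb3 (-0.39 and -0.17), Wipi1 (-0.68 and -6.78, the last from at most 5 reads in each Kat6a-/-Tg(Kat6b) embryo) and Npr3 (-0.25 and -0.43; log2 fold changes without and with the transgene). The other 11 genes called lower in both groups were Dlx6os1, Sycp1, Oc90, Nek3, Cyp26b1, Smim19, Pou3f3, Foxc2, Col15a1, Aldh1a2 and Pou3f2. The median log2 fold change of the 7 genes was -0.42 without and -0.33 with the transgene, where the median of all tested genes was 0.003 and -0.003. Without surrogate variables, which stand for unlabelled variation in the fit, 4 of the 7 (Skida1, Ntn1 and the Rik pair) passed the threshold in each comparison, and with litter as a block 3 (Skida1 and the Rik pair) passed it in the first. In the second, leaving out 1 embryo left between 1 and 7 of the genes called, with 1 called without wild-type replicate 1 or without Kat6a-/-Tg(Kat6b) replicate 4, and 1 (Ntn1) was called without both Kat6a-/-Tg(Kat6b) females.

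The share of the fall that remains in the presence of the transgene was computed for each Kat6a-/-Tg(Kat6b) embryo as its distance from the wild-type mean, divided by the distance between the wild-type and Kat6a-/-Kat6b+/+ means. A share of 0% is the wild-type mean and 100% the Kat6a-/-Kat6b+/+ mean. Skida1 had the smallest share, 46.2% ± 9.61 (SD, n = 4 embryos), between 37.2% and 59.7%. For Ntn1 the share was 90.5% ± 9.67, between 80.0% and 103%. The Rik genes were in between at 78.3% ± 9.44 for 2610005L07Rik and 81.3% ± 20.9 for 6820431F20Rik. For Soga3 it was 139% ± 37.8, and all 4 embryos were at or beyond the Kat6a-/-Kat6b+/+ mean, between 105% and 189%.

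For Tle5 and Rnf150 the mean share, 104% ± 64.4 and 130% ± 77.4, does not describe any one embryo. Males had 38.3% and 59.6% of the fall of Tle5 left and females 153% and 165%. For Rnf150 the males had 37.4% and 96.1% and the females 190% and 198%. These shares use reference means over both sexes, and those means differed by sex. For Tle5, wild-type means were 77.0 CPM in males and 89.5 CPM in females, and Kat6a-/-Kat6b+/+ means 72.3 and 59.2 CPM. For Rnf150 they were 20.3 and 25.0 CPM in wild type, and 18.0 and 15.2 CPM in Kat6a-/-Kat6b+/+ embryos. The gap between males and females is therefore not one against embryos of the same sex. The males and females did not overlap for the other 5 genes either. Shares were higher in males for Skida1 and Ntn1 and in females for Soga3 and the Rik pair. With so few embryos of each sex, values often separate by chance, and how many of all tested genes do so was not counted. The Rik genes are also not independent of each other, and no effect of sex is read from this separation. The median share over the 7 genes was 90.5%, and between 65.7% and 99.6% in single embryos. Computed from the fitted log2 fold changes, which are adjusted for surrogate variables, the share was 42.3% for Skida1, 90.2% for Ntn1, 73.4% for Tle5, 102% for Rnf150, 120% for Soga3, 66.8% for 2610005L07Rik and 70.6% for 6820431F20Rik. Between the transgenic groups, the difference between Kat6a+/+Tg(Kat6b) and Kat6a-/-Tg(Kat6b) means was 60.2% of the same fall for Skida1 and 112% for Ntn1, but 11.6% for 2610005L07Rik and 28.3% for 6820431F20Rik. Without both females the share was 49.0% for Tle5, 66.8% for Rnf150 and 110% for Soga3. Among the other 11 genes low in both groups, the share was between 49.7% (Cyp26b1) and 141% (Col15a1), with a median of 99.1%.

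**Figure D2:**
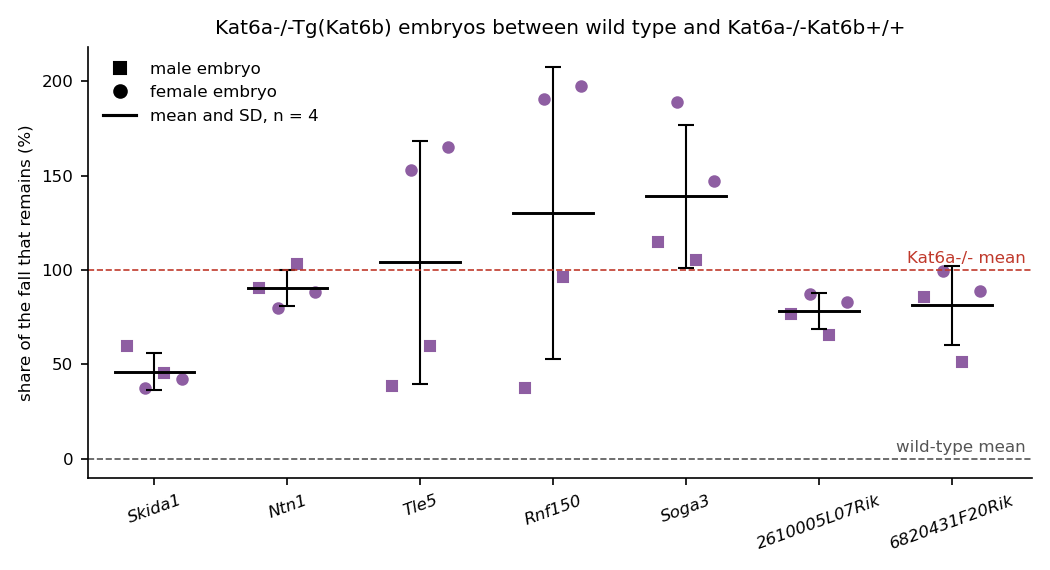
Share of the fall that remains (y axis, %) for each gene (x axis) in the 4 Kat6a-/-Tg(Kat6b) embryos, with males as squares, females as circles and the mean and SD in black. All 4 embryos lie below 60% for Skida1, and all lie above 100% for Soga3. The spread over the 4 embryos is widest for Tle5 and Rnf150.

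The Kat6a+/+Tg(Kat6b) embryos were not used to select the genes, but each comparison with them shares its other arm with the selection. Genes chosen for low values in Kat6a-/-Tg(Kat6b) embryos or high values in wild type tend to read lower in both of these comparisons for that reason alone. The FDR values that follow are therefore too small for the 7 genes by an unknown amount and are not independent evidence of the direction. When Kat6a-/-Tg(Kat6b) was compared with Kat6a+/+Tg(Kat6b), which both carry the transgene and differ in Kat6a, 3 of the 7 genes were called lower, where 1.14% of all tested genes were (2.28% were called higher). Skida1 had a log2 fold change of -0.32 (standard error 0.0521; edgeR FDR = 0.00276), Ntn1 of -0.28 (standard error 0.0441; edgeR FDR = 0.00197) and Tle5 of -0.30 (standard error 0.0549; edgeR FDR = 0.00679). For these 3 genes all 4 Kat6a-/-Tg(Kat6b) embryos lay below all 4 Kat6a+/+Tg(Kat6b) embryos, as did 4.37% of all genes. Tle5 did not pass the threshold without surrogate variables (log2 fold change -0.45, edgeR FDR = 0.0702) or without both Kat6a-/-Tg(Kat6b) females (-0.23, edgeR FDR = 0.123), whereas Skida1 and Ntn1 did (-0.35 and -0.33 without the females, edgeR FDR = 0.0223 and 0.00603).

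The other 4 genes did not pass the threshold in that comparison. Rnf150 had a log2 fold change of -0.33 (standard error 0.101; edgeR FDR = 0.0711), and Soga3 of -0.18 (standard error 0.0773; edgeR FDR = 0.202). The Rik genes had -0.04 (standard error 0.111; edgeR FDR = 0.888) for 2610005L07Rik and -0.14 (standard error 0.0959; edgeR FDR = 0.460) for 6820431F20Rik. The median over the 7 genes was -0.28, and all 7 estimates were below 0.

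The transgene alone (Kat6a+/+Tg(Kat6b) vs. wild type) led to no call among the 7 genes, where 22 of all tested genes (0.14%) were called in either direction. Skida1, Ntn1 and Tle5 had small estimates of 0.07 (standard error 0.0475; edgeR FDR = 0.664), 0.05 (standard error 0.0402; edgeR FDR = 0.686) and 0.06 (standard error 0.0503; edgeR FDR = 0.737). Rnf150 was at -0.10 (standard error 0.0918; edgeR FDR = 0.764) and Soga3 at -0.15 (standard error 0.0701; edgeR FDR = 0.423). 2610005L07Rik and 6820431F20Rik had the largest estimates, -0.45 (standard error 0.101; edgeR FDR = 0.101) and -0.33 (standard error 0.0873; edgeR FDR = 0.160), and were the only 2 of the 7 with every transgenic embryo below every wild-type embryo (2.38% of all genes). With DESeq2 in place of edgeR both passed the threshold (FDR = 0.00196 and 0.0179). At an unadjusted p under 0.05, 1805 of all genes differed in this comparison.

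The Kat6a-/- groups with and without the transgene were both used to select the genes, so their difference is a description with no p-value. Skida1 was the single gene of the 7 without overlap between these groups and past the threshold (7.29% and 3.39% of all genes, higher), from which nothing is read here. The difference was 0.02 for Ntn1, 0.09 for Tle5, -0.01 for Rnf150, -0.06 for Soga3, 0.25 for 2610005L07Rik and 0.20 for 6820431F20Rik on the log2 scale, with standard errors between 0.0417 and 0.106 for these 6.

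**Figure D3:**
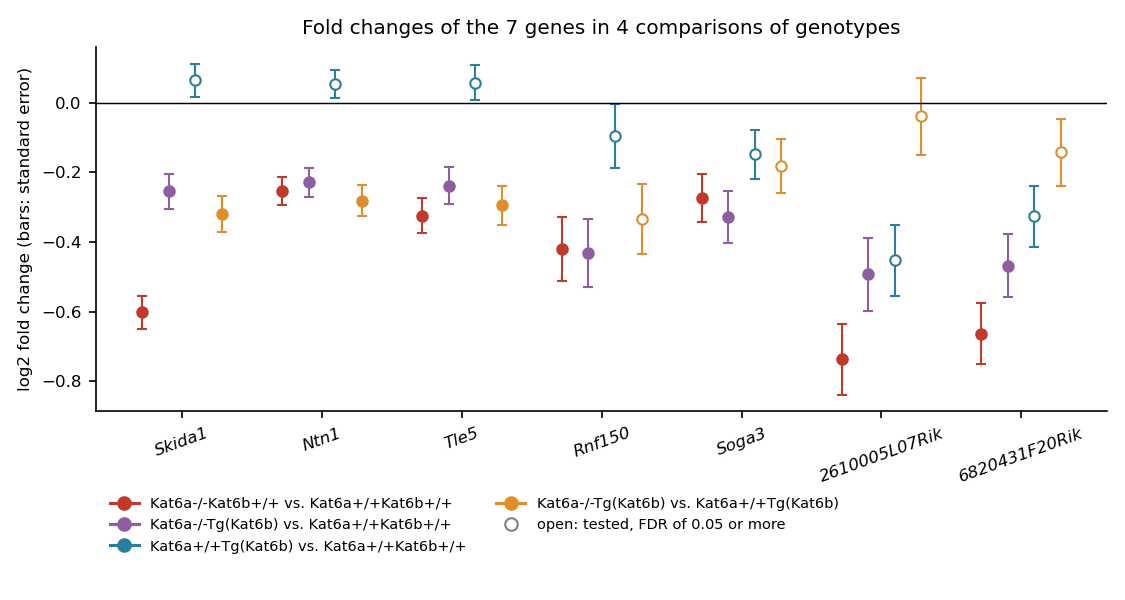
Log2 fold changes (y axis, with standard errors) of the 7 genes (x axis) in 4 comparisons of genotypes, coloured by comparison; open points were tested and had an FDR of 0.05 or more. For the Rik genes the estimate between transgenic embryos with and without Kat6a (orange) is near 0 and that of the transgene alone (blue) is low, whereas for Skida1, Ntn1 and Tle5 the order is the opposite.

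Sex and litter moved with some of these values. Within litter 801, the wild-type embryo was male and both Kat6a-/-Kat6b+/+ embryos were female, and all 7 genes were lower in the mutants (median log2 difference -0.54). Within litter 803, where all 3 embryos were male, 6 of the 7 were lower (median -0.21), and the highest difference was 0.04. Among females alone, from different litters, the log2 difference of Tle5 between Kat6a-/-Kat6b+/+ and wild type was -0.60 and that of Rnf150 -0.71, and among males alone -0.09 and -0.17. For Kat6a-/-Tg(Kat6b) vs. wild type these differences were -0.69 and -1.19 in females and -0.04 and -0.12 in males. The difference from wild type in Tle5 and Rnf150 was thus small in males with either genotype, with 2 embryos in each group. Of the 2 wild-type males, replicate 2 had the lowest Tle5 and Rnf150 of its genotype. In Kat6a-/-Tg(Kat6b) vs. Kat6a+/+Tg(Kat6b) embryos the log2 differences of Tle5 and Rnf150 were -0.26 and -0.19 in males and -0.66 and -1.07 in females. Soga3 was lower in both sexes, by log2 differences of -0.46 and -0.13 without and -0.55 and -0.29 with the transgene in females and males.

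Genes of early neurons differed between the same embryos. A list of 10 markers of newly formed neurons (Tubb3, Elavl3, Elavl4, Dcx, Stmn2, Nhlh1, Isl1, Nefl, Nefm and Ina), chosen after these values were seen, was detected in full in every group. Its summed level was 234 and 237 CPM in the female and 391 and 389 CPM in the male Kat6a-/-Tg(Kat6b) embryos, against 306 to 478 CPM in wild-type, 379 to 496 CPM in Kat6a-/-Kat6b+/+ and 336 to 459 CPM in Kat6a+/+Tg(Kat6b) embryos. The lowest wild-type sum, 306 CPM, was that of replicate 2, which also had the lowest Tle5, Rnf150 and Soga3 of its genotype. In Kat6a-/-Kat6b+/+ embryos none of the 10 markers was called lower than in wild type, and at sums of 379 and 403 CPM, within the wild-type range, the 2 females had Tle5 at 55.9 and 62.5 CPM, below every wild-type embryo. In Kat6a-/- embryos with the transgene all 10 estimates were below those of wild type (median log2 fold change -0.20), and 1, that of the neuronal tubulin gene Tubb3, passed the threshold (-0.30, edgeR FDR = 0.00982; 0.395% of all genes were called lower). Against Kat6a-/- embryos without the transgene, 7 of the 10 were called lower (median -0.36), where 3.74% of all genes were. As the list was chosen after the values were seen, these calls and the shares beside them only describe it. The part of the neuron markers in the values of Tle5, Rnf150 and Soga3 was not tested.

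**Figure D4:**
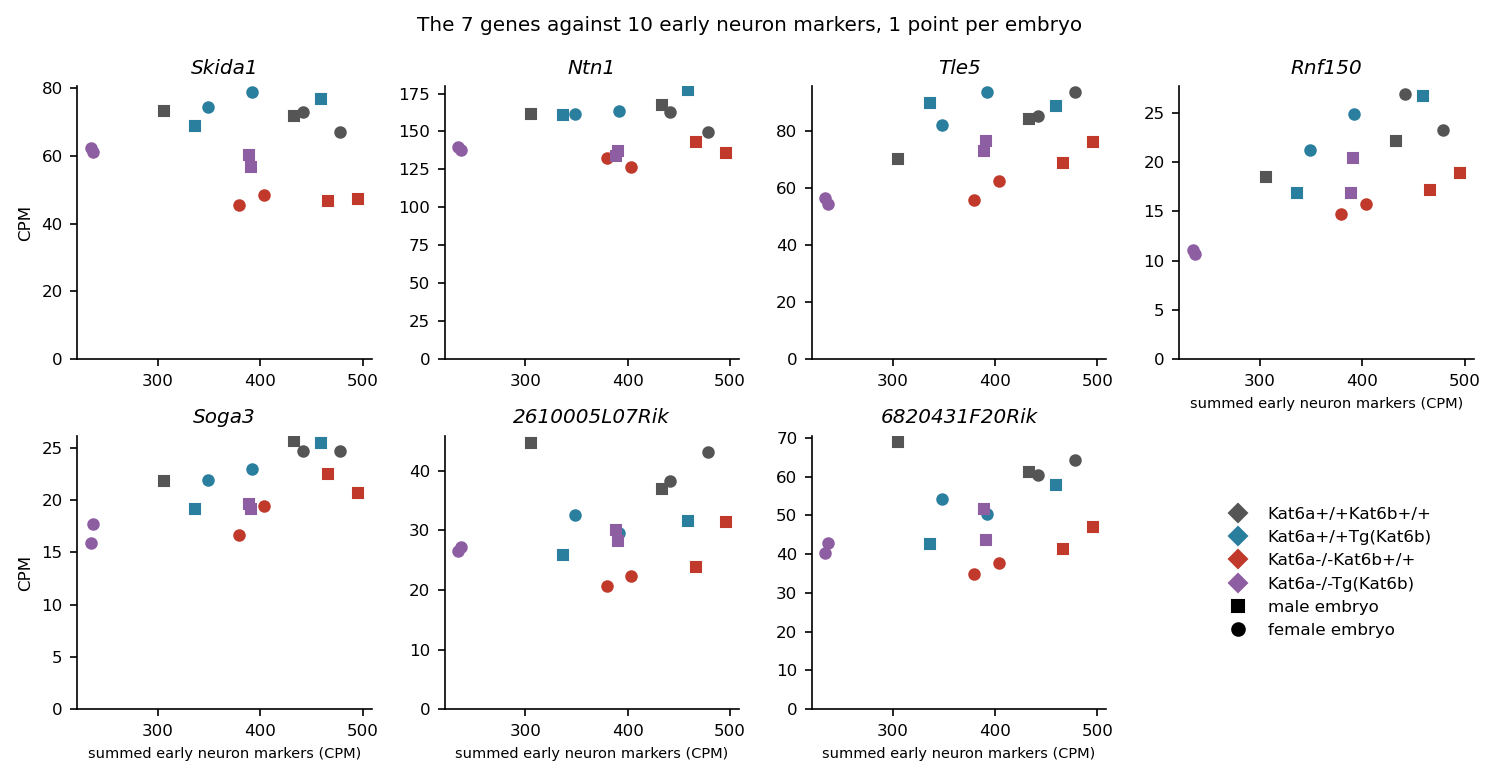
CPM of each gene (y axis, from 0) against the summed CPM of the 10 early neuron markers (x axis), 1 point per embryo, coloured by genotype with males as squares and females as circles. The 2 Kat6a-/-Tg(Kat6b) females, at 234 and 237 CPM of the markers, are lowest for Rnf150, whereas Skida1 and Ntn1 are at like levels in all 4 embryos of that genotype.

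Of the 5 tested genes listed as neighbours of Skida1 on chromosome 2, none was called lower in either Kat6a-/- group. Bmi1, a Polycomb repressor gene (log2 fold change 0.23, edgeR FDR = 0.00381), and Commd3 (0.32, edgeR FDR = 0.0383) were called higher in Kat6a-/-Kat6b+/+ embryos, where 0.944% of all genes were. Mllt10, which encodes a chromatin reader, was called higher in Kat6a-/-Tg(Kat6b) embryos vs. wild type (0.20, edgeR FDR = 0.0369, with 0.274% of all genes called higher) and vs. Kat6a+/+Tg(Kat6b) (0.19, edgeR FDR = 0.0291). Of 5 other tested genes with a SKI/SNO/DAC domain, Dach2 was called higher in Kat6a-/-Kat6b+/+ embryos (0.39, edgeR FDR = 0.00882) and the corepressor genes Ski, Skil and Dach1 were not called. The genes whose values over the 16 embryos were most like those of Skida1 were Hoxb3, Hoxc4 and Cyp26b1, with a root-mean-square difference of centred log2 CPM of 0.111, 0.115 and 0.116 (median over 14036 genes, 0.294).

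Of 20 other tested genes for netrins, their receptors and proteins that act after the receptors, none was called in either Kat6a-/- group vs. wild type. The receptor genes Dcc (19.3 ± 3.53 in Kat6a-/-Kat6b+/+ vs. 18.0 ± 3.27 CPM in wild type) and Neo1 (226 ± 7.39 vs. 223 ± 8.89 CPM) had overlapping values, and the repulsive receptor gene Unc5b was at 82.8 ± 1.45 vs. 92.3 ± 2.87 CPM (edgeR FDR = 0.0523). Between the transgenic groups, the receptor gene Neo1 (log2 fold change 0.18, edgeR FDR = 0.0197) and Ablim1, an actin-binding protein of the same pathway (0.21, edgeR FDR = 0.0412), were called higher in Kat6a-/- embryos, 2 of the 20 where 2.28% of all genes were. None of 12 markers of the floor plate and notochord, the main source of netrin-1 at this stage, was called in either Kat6a-/- group vs. wild type, and none was at 0 in a whole group. Their summed level was nevertheless lower in all Kat6a-/- embryos, 233 to 237 CPM without and 229 to 235 CPM with the transgene, than in wild-type (239.4 to 249.6 CPM) and Kat6a+/+Tg(Kat6b) embryos (239.6 to 250.5 CPM). The lower sum did not hold for each marker. Of the 12 estimates vs. wild type, 6 were below 0 without the transgene (median log2 fold change 0.01) and 11 with it (median -0.08). The 9 neural tube markers summed to 488 to 506 and 495 to 531 CPM in the same Kat6a-/- groups and to 529 to 554 CPM in wild-type and 563 to 629 CPM in Kat6a+/+Tg(Kat6b) embryos, with none of them called in either Kat6a-/- group vs. wild type. Some markers of the somites and the otic vesicle, where Ntn1 is also expressed, were called lower in each Kat6a-/- group vs. wild type. Of 8 somite markers these were 2 without the transgene, Foxc2 (log2 fold change -0.28, edgeR FDR = 0.0085) and Uncx (-0.34, edgeR FDR = 0.0136), and 2 with it, Foxc2 (-0.26, edgeR FDR = 0.0346) and Meox1 (-0.19, edgeR FDR = 0.0239), where 0.938% and 0.395% of all genes were called lower. Of the 8 somite estimates vs. wild type, 6 were below 0 without the transgene (median -0.203) and 5 with it (median -0.175). The somite sums were 195 to 217 and 193 to 214 CPM in the Kat6a-/- groups, 204.7 to 256.1 CPM in wild-type and 223 to 237 CPM in Kat6a+/+Tg(Kat6b) embryos. Of 7 otic markers, Oc90 (-1.41, edgeR FDR = 0.00482) and Pax2 (-0.40, edgeR FDR = 0.044) were called lower without the transgene and Oc90 (-1.48, edgeR FDR = 0.0135) with it. Of the 7 otic estimates vs. wild type, 7 were below 0 without the transgene (median -0.286) and 5 with it (median -0.093). The otic sums were 63.3 to 70.0 and 70.8 to 76.2 CPM in the Kat6a-/- groups, 75.6 to 81.0 CPM in wild-type and 83.0 to 97.8 CPM in Kat6a+/+Tg(Kat6b) embryos. Foxc2 and Oc90 are also among the 18 genes called lower in both groups, and no marker of either list was at 0 in a whole group. Of the other marker lists, 1 of 5 neural crest markers (Foxd3) was called lower and 3 of 5 tested macrophage markers (Mrc1, Csf1r and Ptprc) were called higher in Kat6a-/-Kat6b+/+ vs. wild-type embryos (0.944% of all genes were called higher), and none of the heart, endothelium, erythroid and gut markers was called in either Kat6a-/- group vs. wild type. Between the transgenic groups, 1.14% of all genes were called lower in Kat6a-/- embryos and 2.28% higher. Of the markers, 2 of 9 neural tube, 3 of 8 somite and 2 of 7 otic ones were called lower there. Called higher were 2 of 6 endothelium and 2 of 5 tested macrophage markers. None of the floor plate, heart, erythroid, neural crest, gut and early neuron markers was called in that comparison. The part of these cell types in the fall of Ntn1 and of the other genes was not tested. The genes most like Ntn1 over the 16 embryos were Aldh1a2, Sfrp2 and Lfng (root-mean-square differences of 0.0468, 0.0723 and 0.0793, median over all genes 0.187).

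Of 5 other tested Groucho/TLE genes, Tle2 was called lower in Kat6a-/-Kat6b+/+ embryos (5.75 ± 2.01 CPM in wild type and 3.27 ± 0.565 CPM, log2 fold change -0.77, edgeR FDR = 0.0287), 1 of 5 where 0.938% of all genes were, and none was called in any of the other comparisons. Tle1, Tle3 and Tle4, which encode full-length corepressors, had log2 fold changes of -0.06, -0.03 and 0.01 without it. None of 10 other membrane-bound RING ligase genes was called vs. wild type in any genotype, among them Rnf13, Rnf128, Rnf130 and Rnf149. Neither of the 2 other tested genes of the Soga3 family, Soga1 and Mtcl1, was called in any comparison. The most similar genes over the 16 embryos were Pou3f3, Cux2 and Slc29a4 for Tle5 (0.0980, 0.108 and 0.118, median 0.286), Col25a1, Isl2 and Pou3f3 for Rnf150 (0.152, 0.153 and 0.159, median 0.403) and Phf21b, Gprin1 and Pou3f2 for Soga3 (0.0917, 0.0931 and 0.0953, median 0.239).

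The Rik genes were most like each other (0.0837, with medians over all genes of 0.332 for 2610005L07Rik). Cdh11, whose sequence they share in part, was called lower in Kat6a-/-Kat6b+/+ embryos by a smaller amount (201 ± 14 CPM in wild type and 176 ± 3.51 CPM, log2 fold change -0.18, edgeR FDR = 0.0107), and was the 1 of 11 tested type II cadherin genes called there, where 0.938% of all genes were called lower. With the transgene, none of the 11 was called in Kat6a-/- embryos vs. wild type, and 2, Cdh5 (0.23, edgeR FDR = 0.009) and Cdh6 (0.34, edgeR FDR = 0.0492), were called higher than in Kat6a+/+ embryos (2.28% of all genes).

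Both Rik genes also lie near Kat6a itself, 3.23 and 3.17 Mb from it on chromosome 8, whereas Rnf150 lies 60.2 Mb away and the other 4 genes are on other chromosomes. Within 5 Mb of Kat6a, 59 genes other than Kat6a were tested, of which 4 were called lower in both Kat6a-/- groups (0.115% of all genes were): the Rik pair, Nek3 (log2 fold changes of -1.26 and -1.13), a kinase gene, and Smim19 (-0.66 and -0.51), and 1, Hgsnat, which encodes a lysosomal enzyme, was called higher in both (0.81 and 0.61). When Kat6a+/+Tg(Kat6b) was compared with wild type, the estimates of these 5 genes had the same signs and were smaller, at -0.45 and -0.33 for 2610005L07Rik and 6820431F20Rik, -0.37 for Nek3, -0.20 for Smim19 and 0.43 for Hgsnat, and only that of Hgsnat passed the threshold (edgeR FDR = 0.0153). For genes this close to the null allele, the allele and the chromosome segment inherited with it cannot be told apart.

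**Figure D5:**
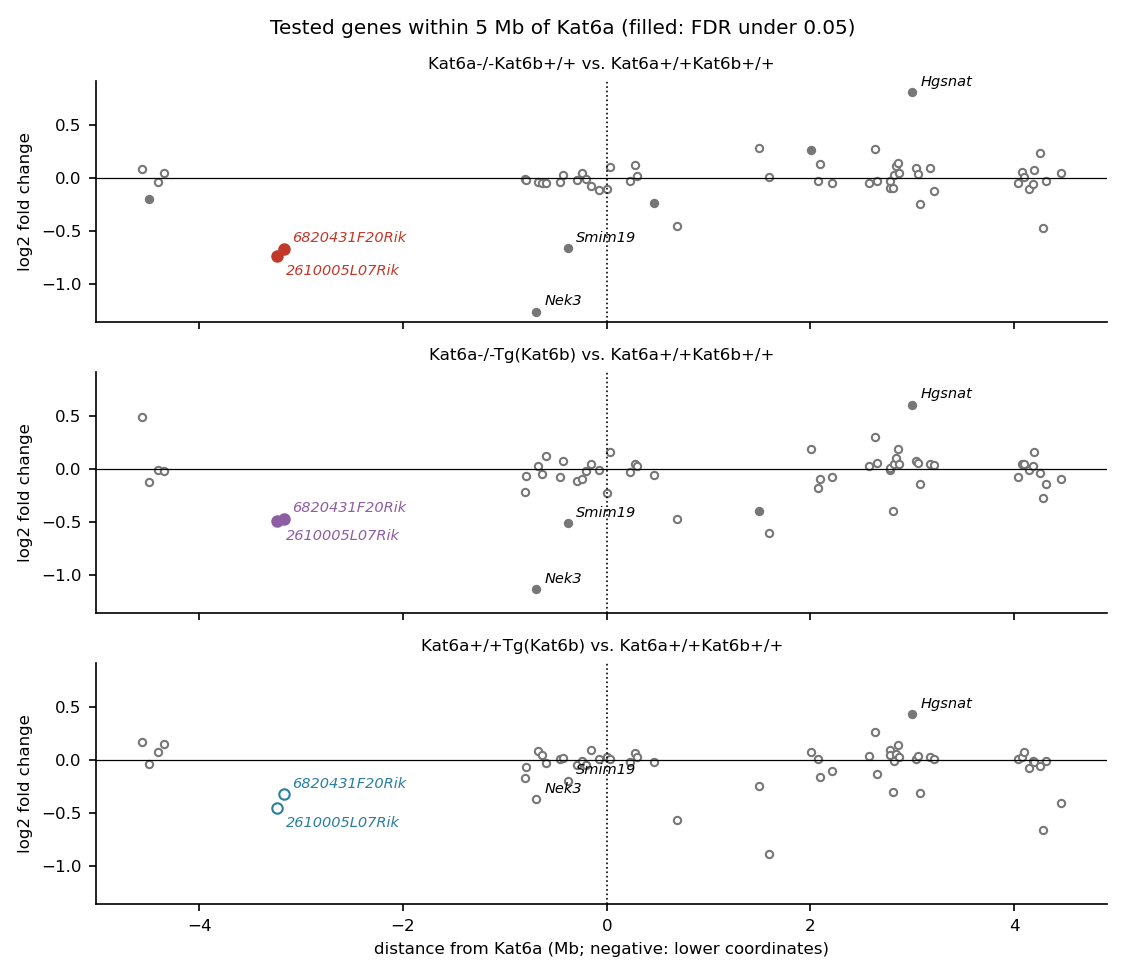
Log2 fold change (y axis) of the tested genes within 5 Mb of Kat6a against their distance from it (x axis, Mb) in 3 comparisons with wild type, filled where the FDR was under 0.05. The Rik pair, Nek3 and Smim19 are low and Hgsnat is high in both Kat6a-/- groups, with smaller values of the same sign in Kat6a+/+Tg(Kat6b) embryos.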

How the data were processed

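The labels place each library, made from 1 embryo, in a genotype, and the embryos of a genotype are its replicates. The deposited values are raw gene counts. The authors prepared libraries with a TruSeq RNA kit, sequenced pairs of 66 bases, aligned them with Rsubread to mm39 and counted them per gene. The submitters' processing notes name featureCounts. The strand setting is not given in the sources used here.

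From the counts, 15679 of 26411 genes were kept with edgeR's filterByExpr (minimum count 10, total 15). A TMM-normalised quasi-likelihood model (edgeR 4.0.16, limma 3.58.1, R 4.3.3) was fitted to all 16 libraries with genotype and 2 surrogate variables (sva 3.50.0, at most 4 allowed), with a call at FDR under 0.05. The study's methods name edgeR, limma, TMM and surrogate variables, and the quasi-likelihood test and the number of surrogate variables were chosen here. DESeq2 1.42.0 and other settings were alternatives. Totals of 14407277 to 45665680 counts set the precision. Genes were named as the 7 genes, those low in both Kat6a-/- groups, the listed families and neighbours, and for each gene its 3 nearest by root-mean-square difference of centred log2 CPM (prior count 2). The genes and lists were chosen with earlier results of these data known. In simulated counts, the test of Kat6a-/-Kat6b+/+ vs. wild type found 54 of 100 genes with a log2 fold change of -0.3. It found 88 of 100 genes with -0.6, and made 3 false calls. The simulated hidden factor was balanced over genotypes, unlike litter in the data, so the simulation does not cover that overlap. Sequences and 66-base windows were read from GRCm39 with GENCODE exons.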

Additional observations from a re-analysis of the deposited data

Results flagged for a closer look

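In each of 36 groups of 4 embryos (the 7 genes, Kat6a and Kat6b among the 4 genotypes), the gap of the highest or lowest embryo to the next was compared with the range of the group. The gap passed Dixon's critical value for 4 samples in 2 of them, where chance flags about 1 in 20 groups. Ntn1 was at 177.4 CPM in Kat6a+/+Tg(Kat6b) replicate 3 and between 160.9 and 163.6 CPM in the other 3 embryos (gap 0.838 of the range), so that the highest Ntn1 value of all embryos belongs to this one. Kat6a was at 138.1 CPM in Kat6a+/+Tg(Kat6b) replicate 1 and between 188.8 and 196.3 CPM in the others (gap 0.870 of the range). In that same library, the median log2 deviation from the mean of its own genotype was -0.20 for long genes and 0.12 for short genes. This trend was not tested as a source of the value.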

How the results depend on the processing

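The main limits are the overlap of sex and litter with genotype, embryo-to-embryo variation in Tle5, Rnf150 and Soga3, and shared sequence in the Rik pair. The causes of the changes listed here were not tested. Of the 7 genes, 7 were lower in Kat6a-/-Kat6b+/+ vs. wild-type embryos, and 4 without surrogate variables, with 1, with sex as a covariate or with only the 2 genotypes fitted, 3 with litter as a block, and 5 to 7 when 1 embryo was left out. For Kat6a-/-Tg(Kat6b) vs. wild type, 7 became 4 without surrogate variables, 0 at an FDR under 0.01, 1 without both Kat6a-/-Tg(Kat6b) females (chosen after seeing the data), and 1 to 7 when 1 embryo was left out. For Kat6a+/+Tg(Kat6b) vs. wild type, 0 became 2 with DESeq2, 1 without a count filter, 2 with at least 10 counts in every embryo, and 0 to 1 when 1 was left out. Between the transgenic groups, 3 became 5 with at least 10 counts in every embryo, 2 without both females and 3 to 4 when 1 was left out. Between the Kat6a-/- groups, 1 became 2 without a count filter and 1 to 3 when 1 was left out. The median share of the fall that remains was 90.5%, 73.4% on the log2 scale, 68.5% without both females and 81.8% to 101% when 1 was left out. Estimates near 0 changed sign in Kat6a+/+Tg(Kat6b) vs. wild type for Tle5 (-0.00677 with offsets for the gene length trend of each library, chosen after seeing the data) and Rnf150 (0.0181 with at least 10 counts in every embryo, 0.016 with the length offsets, -0.136 to 0.0144 when 1 embryo was left out, the last without wild-type replicate 3), and in Kat6a-/-Tg(Kat6b) vs. Kat6a+/+Tg(Kat6b) for 2610005L07Rik (-0.147 to 0.0301 when 1 was left out, with 0.0114 without wild-type replicate 2 and the highest without Kat6a+/+Tg(Kat6b) replicate 2). Skida1 and Ntn1 remained lower and called in that comparison under all 12 alternatives and all 16 leave-outs. These fits reuse the Kat6a-/-Tg(Kat6b) values that selected the genes, so the calls are not independent evidence. Replicate numbers did not pair the samples (24 pairs of deviations, r between -0.621 and 0.648, 12 above 0.1, and 4 of 16 embryos closest to their own number), and with the replicate number as a block 4 of the 7 genes were called in Kat6a-/-Tg(Kat6b) vs. wild type and 3 vs. Kat6a+/+Tg(Kat6b).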

Other observations

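Wipi1, an autophagy gene that is not one of the 7 and was picked out after its values were seen, was nearly without reads in a single genotype. Its counts were 0, 3, 3 and 5 in the 4 Kat6a-/-Tg(Kat6b) embryos and between 141 and 428 in each of the other 12. The log2 fold change of Wipi1 between the transgenic groups (Kat6a-/- minus Kat6a+/+) was -7.14 (edgeR FDR = 1.03e-07), and that between Kat6a-/-Kat6b+/+ and wild-type embryos was -0.68 (edgeR FDR = 0.0656). The 4 embryos came from litters 483 and 498, which held no other genotype, so that litter and genotype cannot be told apart for this value either.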
